A study of Mus musculus with 3 samples.

Results

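The integrin and laminin genes of the mouse were examined in 3 cultures, with 1 RNA sequencing library each. A gene was a member if its symbol was Itga or Itgb followed by a number or letter, or Lama, Lamb or Lamc followed by a digit. This gave 38 of the 47725 genes in the deposited tables, under 37 symbols, since Itgam stands in the tables under 2 gene identifiers. They comprised 19 integrin chains used outside leukocytes, 8 rows for 7 integrin chains typical of leukocytes, and 11 laminin chains. The cultures came from mouse embryonic stem cell lines: wild type, labelled WT, a mutant of Barhl1, labelled BM, and a mutant of the E-box site E3, labelled BEM. Barhl1 encodes a homeobox transcription factor of sensory hair cells, and an E-box is a short DNA motif bound by basic helix-loop-helix factors. By the labels' protocols, all 3 cultures were started from otic progenitors, precursors of inner ear cells, seeded on embryonic chicken utricle stroma that had been made unable to divide. The medium was DMEM/F12 with N2 and B27 supplements, 25 ng/ml EGF and 1 µM retinoic acid, and the cultures were taken at culture day 9. The kind of mutation in BM, whether each line is 1 clone, and whether chicken reads were removed are all left unsaid by the sources used here. With 1 library per line no difference has a replicate check, no p-value was computed, and each comparison is of libraries. In such bulk RNA, fewer cells of a type and less RNA per cell cannot be told apart.

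Integrins are receptors of the cell surface made of an α and a β chain, which tie the matrix outside the cell to the actin or keratin skeleton inside it. Laminins are secreted as cross-shaped trimers of an α, a β and a γ chain. They form the sheet of the basement membrane together with type IV collagen, nidogens and perlecan. The α chains of both families set most of the specificity: the integrin α chain decides largely whether laminin, collagen, fibronectin or a cell surface protein is bound, and the laminin α chain carries the main sites for cell receptors. In the inner ear, as in other epithelia, a basement membrane lies under the sensory sheet.

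Reads recovered from the FPKM and falling in genes numbered 21300762 (WT), 19931061 (BM) and 23596386 (BEM), and 12875 genes had a mean of at least 1 FPKM (reads scaled by the gene's length and by the library's total) over the 3 libraries. These genes are called measured here. Of the 38 members 25 were measured, and whole reads could be recovered from the FPKM of all 38. The libraries are labelled as hair cell-like cells, and 2 of 6 hair cell markers reached 1 FPKM in each library: Atoh1 and Espn in WT, and Atoh1 and Myo7a in BM and BEM. Atoh1, whose values gave no whole reads, stood at 270.2, 236 and 241 FPKM in the order WT, BM, BEM, Myo7a at 0.704, 9.79 and 9.83, and Espn at 2.08, 0.565 and 0.503. Gfi1, Pou4f3 and Otof were below 1 FPKM throughout. Gfi1 had 43 reads in WT and 0 in BM and in BEM, and Pou4f3 had 1 read in each library. The sum of 7 otic progenitor markers was 15.4, 4.29 and 4.28 FPKM, with Pax8 at 3, 3 and 5 reads and Dlx5 at 0, 2 and 1 reads. The summed FPKM of 13 macrophage markers was 13.3 (WT), 1927 (BM) and 1973 (BEM). The sum of 8 epithelial markers was 37.4, 5.73 and 5.43, that of 10 fibroblast and mesenchyme markers was 2438, 5034 and 4922, and that of 6 smooth muscle markers was 81.8, 3734 and 3776, in the same order. The sum of 8 endoderm markers was 30.7, 5.84 and 6.01 FPKM, and that of 5 neural markers was 48.4, 25.2 and 24.3. In the endoderm list Gata4 and Afp were higher in BM and BEM than in WT and the other markers were lower. In the neural list Tubb3, Stmn2 and Sox10 were higher, and Nes and Elavl3 were lower. The part of these differences in the results on integrins and laminins was not tested.

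Promoter windows of 5 members that the results turn on are shown, as examples of the regulatory sequence at genes with large differences between WT and the other cultures. Each window holds 300 bases, 250 before the transcript start and 50 after it, from RefSeq on GRCm38.p6, and is written 5′ to 3′ on the strand of the gene. Capitals mark GAGGAA or its complement TTCCTC in the windows of Itgam and Itgax, the core letters bound by PU.1, a transcription factor of macrophages encoded by Spi1. In the windows of Itga11, Itga3 and Lama5 capitals mark GGGCGG or its complement CCGCCC, the GC box bound by Sp1. Each window is marked for 1 motif only. Left unmarked are 1 GC box in the Itgam window and 1 PU.1 core in each of the Itga11 and Lama5 windows. Both strands were searched and the letters of the motifs do not overlap each other.
Itgam: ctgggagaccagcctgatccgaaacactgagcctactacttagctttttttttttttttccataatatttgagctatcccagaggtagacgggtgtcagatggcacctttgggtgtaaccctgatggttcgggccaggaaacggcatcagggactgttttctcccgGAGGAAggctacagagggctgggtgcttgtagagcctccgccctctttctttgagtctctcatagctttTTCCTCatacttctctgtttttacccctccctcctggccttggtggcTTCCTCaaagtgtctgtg
Itgax: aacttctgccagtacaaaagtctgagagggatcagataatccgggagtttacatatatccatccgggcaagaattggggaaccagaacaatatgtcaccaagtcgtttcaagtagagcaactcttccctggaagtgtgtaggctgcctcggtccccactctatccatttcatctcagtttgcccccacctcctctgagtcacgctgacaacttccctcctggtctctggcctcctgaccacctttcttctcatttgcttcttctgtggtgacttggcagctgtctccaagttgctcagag
Itga11: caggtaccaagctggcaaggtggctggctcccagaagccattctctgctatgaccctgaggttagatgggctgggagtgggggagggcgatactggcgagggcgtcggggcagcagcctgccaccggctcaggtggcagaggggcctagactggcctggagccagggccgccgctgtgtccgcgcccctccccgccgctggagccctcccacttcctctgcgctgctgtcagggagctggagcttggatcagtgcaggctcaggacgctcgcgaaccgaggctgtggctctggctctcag
Itga3: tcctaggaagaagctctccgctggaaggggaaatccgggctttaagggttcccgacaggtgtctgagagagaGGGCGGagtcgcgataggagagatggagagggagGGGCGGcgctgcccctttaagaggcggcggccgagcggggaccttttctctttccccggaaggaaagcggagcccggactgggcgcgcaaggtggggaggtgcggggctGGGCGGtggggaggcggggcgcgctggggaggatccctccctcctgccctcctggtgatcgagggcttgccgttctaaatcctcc
Lama5: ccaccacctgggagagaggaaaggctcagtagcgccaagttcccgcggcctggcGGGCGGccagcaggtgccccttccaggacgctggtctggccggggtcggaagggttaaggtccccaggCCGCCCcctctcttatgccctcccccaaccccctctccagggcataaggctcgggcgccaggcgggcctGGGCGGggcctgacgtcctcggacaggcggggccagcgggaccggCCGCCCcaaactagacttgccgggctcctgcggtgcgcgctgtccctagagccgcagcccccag

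The Itgam window lies at chr7:128062390-128062689 on the plus strand and held 3 matches to the PU.1 core, starting at positions -84, -15 and 33, where position 1 is the first transcribed base. The Itgax window, at chr7:128129300-128129599 on the plus strand, held 0. Among all 32851 RefSeq windows of this length, 28.3% held the PU.1 core, and it was found in 14 of the 26 windows available for 23 members. RefSeq gives a pair of windows for Itga3, and the one shown, at the 5′ end of the gene (chr11:95076665-95076964, minus strand), held 3 GC boxes, starting at -178, -144 and -35. The other, at chr11:95069149-95069448, held 1 GC box and 5 CG dinucleotides. The Lama5 window at chr2:180225810-180226109 on the minus strand held 4, starting at -196, -128, -59 and -14. The Itga11 window at chr9:62677605-62677904 on the plus strand held 0 GC boxes. GC boxes were found in 35.7% of all windows and in 12 of the 26 windows of members. The dinucleotide CG occurred 24 times in the Itga3 window shown, 24 times in that of Lama5, 16 times in that of Itga11, 6 times in that of Itgam and 5 times in that of Itgax, against a median of 7 over all windows. A match is only a description of the letters in these windows.

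Members were sorted by their difference in log2(FPKM + 0.5), and those at least 2-fold apart on this scale were counted. Between BM and WT, 5 of the 25 measured members were higher in BM, 8 were lower and 12 were neither. Among all 12875 measured genes 10.5% were higher in BM by this rule, 15.3% were lower, and 25.8% were past the threshold in either direction. The members' share in either direction was 52%, and their median log2 difference was -0.50 against -0.08 over all measured genes. Between BEM and WT, 4 members were higher, 9 lower and 12 neither, with background shares of 10.7% higher, 15.3% lower and 25.9% in either direction and a member median of -0.51 against -0.07. The filter passes a gene that is high in 1 culture alone, and 8 of the 25 measured members were below 1 FPKM in at least 1 library. Among the 17 members at 1 FPKM or more in every library, BM had 3 higher and 5 lower than WT, and BEM had 2 higher and 5 lower. Of all genes at that level in every library, 7.33% were higher and 10.9% lower in BM (18.2% in either direction), and 7.35% were higher and 11% lower in BEM (18.3%).

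**Figure D1:**
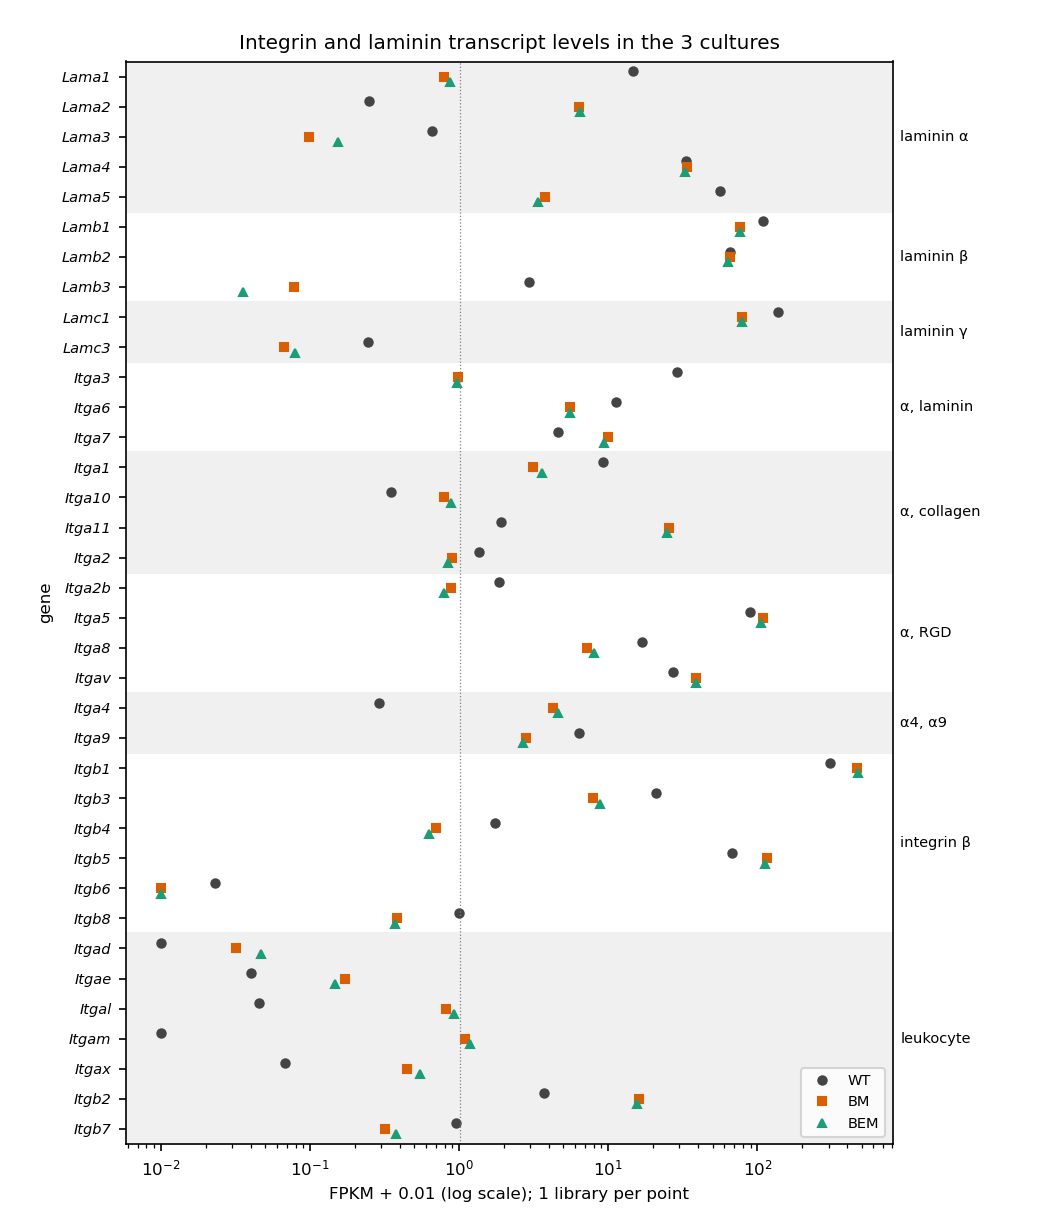
FPKM of the members reported here in the 3 cultures, grouped by role, on a logarithmic horizontal axis with a small constant added so that 0 can be drawn. Each point is 1 library (grey circle WT, orange square BM, green triangle BEM) and the dotted line marks 1 FPKM. The WT point lies far to the right of the others for Lama1, Lama5, Lamb3 and Itga3, and far to the left for Lama2, Itga4, Itga11 and Itgam.

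**Figure D2:**
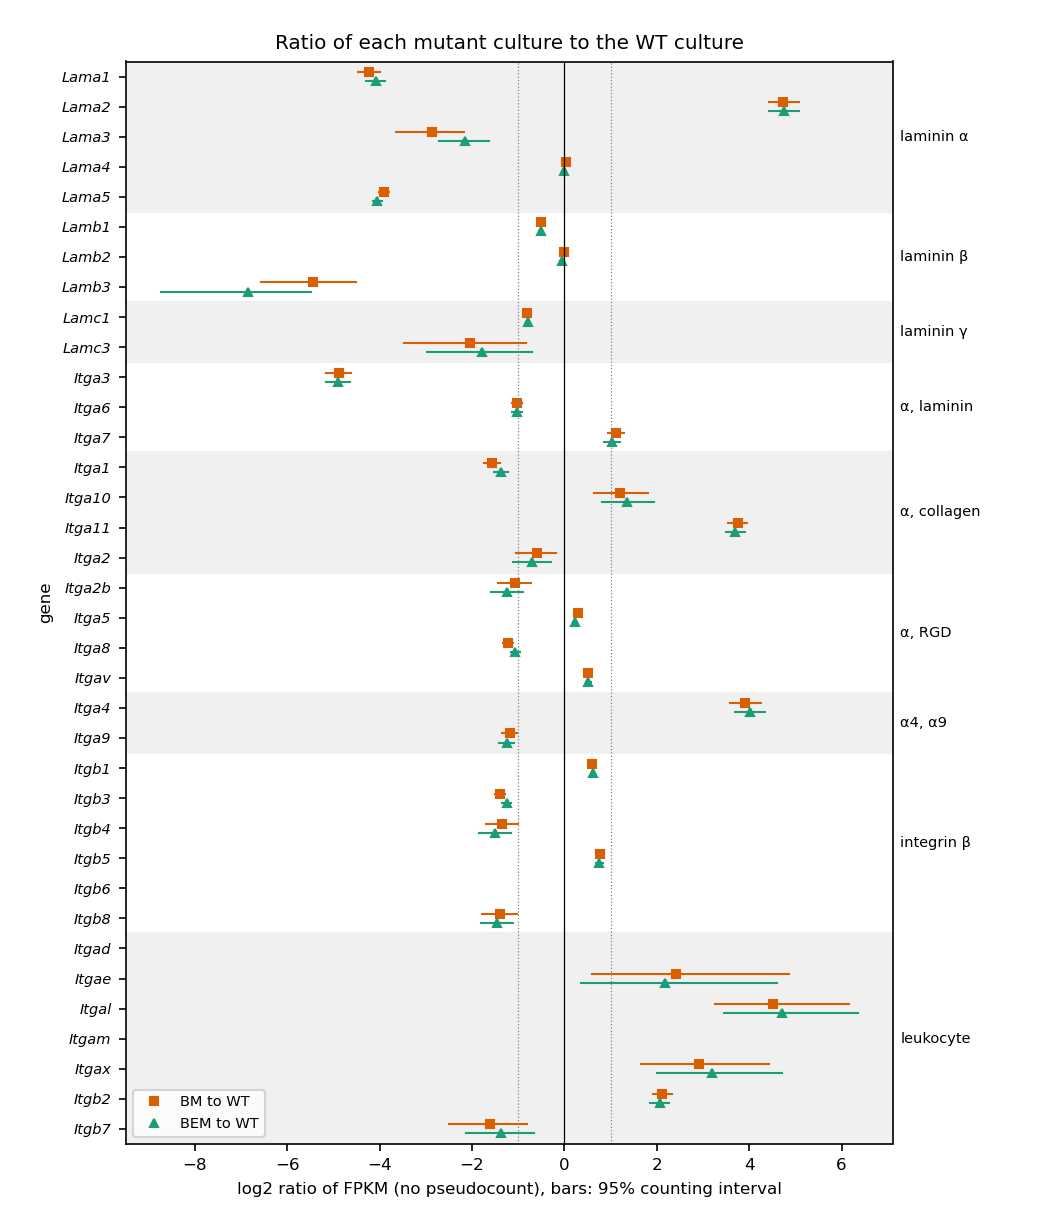
The log2 ratio of FPKM, without pseudocount, of BM to WT (orange squares) and BEM to WT (green triangles) for each member reported here with reads in all the libraries compared. Bars are 95% counting intervals, the solid line marks equal levels and the dotted lines mark 2-fold. Both ratios of a gene share the WT library. The bars are long for Lamb3, Lamc3, Itgae, Itgal and Itgax, which rest on few reads.

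Among laminin α chains, BM and BEM had less Lama1 and Lama5 and more Lama2 than WT, while Lama4 was at nearly the same level in all 3. Lama5, the α chain of the main laminins under mature epithelia and endothelia, stood at 56.1 FPKM (WT), 3.75 (BM) and 3.39 (BEM) (chr2:180176373-180225859, minus strand, GRCm38). WT was thus far above the other cultures, and BM was 15.0-fold lower (counting interval 14.0 to 16.1) and BEM 16.6-fold lower (15.5 to 17.7). Such 95% intervals are exact and cover counting error only. Lama1, the α chain of the first laminin of the embryo, stood at 14.6 FPKM (WT), 0.778 (BM) and 0.860 (BEM) (chr17:67697259-67822647, plus strand). BM was 18.7-fold lower (15.9 to 22.2) and BEM 17.0-fold lower (14.7 to 19.7) than WT. Lama2, the α chain of muscle and nerve sheath laminin, went the other way, with 0.239 FPKM (WT), 6.38 (BM) and 6.43 (BEM) (chr10:26980036-27619758, minus strand). It was 26.8-fold higher in BM (21.5 to 33.7) and 27.0-fold higher in BEM (21.7 to 33.9). Lama4, found in the basement membranes of vessels and mesenchyme, stood at 33.0 FPKM (WT), 34.0 (BM) and 32.9 (BEM). It was 1.03-fold higher in BM (0.998 to 1.06) and 1.00-fold lower in BEM (0.974 to 1.03), and both intervals include no difference. Lama3, an α chain of skin and other stratified epithelia, was not measured, with 149 reads in WT, 19 in BM and 37 in BEM.

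The makeup of the α chain pool differed accordingly between WT and the other cultures, as shares of summed FPKM, which is a scale per length. In WT the 5 α chains summed to 104.6 FPKM, against 45.0 in BM and 43.8 in BEM. Lama5 made up 53.6% of this sum in WT, 8.33% in BM and 7.74% in BEM, while Lama4 made up 31.6%, 75.6% and 75.3%. Lama4 was thus the chain with the largest share in BM and BEM and Lama5 the one in WT. Lama2 made up 0.228% in WT, 14.2% in BM and 14.7% in BEM, and Lama1 13.9%, 1.73% and 1.97%.

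**Figure D3:**
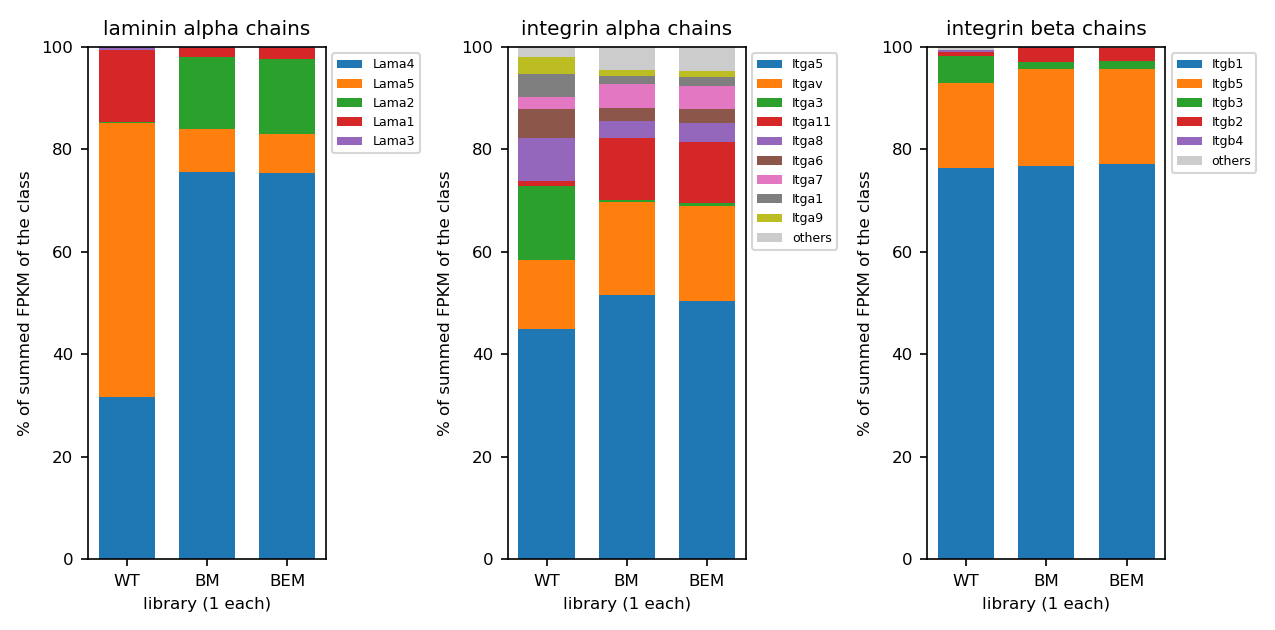
Each chain's percentage of the summed FPKM of the laminin α, integrin α and integrin β chains in the 3 cultures, as stacked bars of 1 library each, with minor chains joined as others. Lama5 has the largest laminin α share in WT (53.6%) and Lama4 in BM and BEM (75.6% and 75.3%), while Itga5 and Itgb1 lead their classes in all 3.

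The β and γ chains shared by most laminins differed less, and the epithelial chain Lamb3 stood apart from them. Lamb1, the β chain of the embryonic laminins, stood at 109 FPKM (WT), 77.0 (BM) and 76.5 (BEM), 1.41-fold lower in BM (1.39 to 1.44) and 1.42-fold lower in BEM (1.40 to 1.45). Lamc1, the γ chain of nearly all laminins outside the skin, stood at 137, 78.5 and 78.6 FPKM, 1.74-fold lower in both BM (1.70 to 1.78) and BEM (1.70 to 1.77). Neither reached the 2-fold threshold. Lamb2, the β chain of kidney and synapse laminins, was at 65.9, 65.5 and 63.8 FPKM, 1.01-fold lower in BM (0.975 to 1.04) and 1.03-fold lower in BEM (1.00 to 1.06). Lamb3, which joins Lama3 in the laminin that anchors the epidermis, stood at 2.93 FPKM (WT), 0.0677 (BM) and 0.0254 (BEM) (chr1:193207699-193343878, plus strand). These values rest on 418, 9 and 4 reads, so that the folds of 43.3 (22.6 to 95.4) for BM and 115 (44.8 to 426) for BEM are known only within wide limits. The γ chain Lamc3 was not measured, with 31, 7 and 10 reads. Of the 8 measured laminin chains 1 was higher and 3 were lower in BM than in WT, and the same counts held for BEM. The background was 10.5% higher and 15.3% lower for BM, and 10.7% and 15.3% for BEM. Lama2 in WT, and Lama1 and Lamb3 in BM and BEM, were below 1 FPKM and passed the filter through the cultures where they were high. Of the laminin chains past the threshold only Lama5 was at 1 FPKM or more in every library. Of all genes at that level in every library, 7.33% were higher and 10.9% lower in BM, and 7.35% and 11% in BEM. Among laminin chains of at least 10 FPKM, 0 were higher and 1, Lama5, was lower, a setting for which no background share was computed. The median log2 difference of the 8 was -0.65 in both comparisons. Of the 3 measured epithelial markers, Krt8, Krt18 and Cldn4, all were at least 2-fold lower in BM and in BEM than in WT. Among all measured genes 15.3% were lower in each comparison. Cldn4 in BM and BEM, and Krt8 in BEM, were below 1 FPKM, and the filter passed Cldn4 through WT alone. Krt14, not measured, went the other way with 4, 11 and 11 reads, though its intervals include no difference. The epithelial surface marker Epcam was low in each library, at 0.614 FPKM (WT), 0.0244 (BM) and 0.103 (BEM). The part of epithelial or endoderm cells in the laminin differences was not tested.

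Of the 3 integrin α chains that bind laminin with β1, Itga3 was far lower in BM and BEM, Itga6 was about 2-fold lower and Itga7 was about 2-fold higher. Itga3, the receptor chain for Lama5 and Lama3 laminins in epithelia, stood at 28.7 FPKM (WT), 0.975 (BM) and 0.963 (BEM) (chr11:95044474-95076801, minus strand). Only WT had a level above 1 FPKM, and BM was 29.4-fold lower (24.4 to 35.9) and BEM 29.8-fold lower (25.0 to 35.8). Itga6, which pairs with β1 or with β4 at hemidesmosomes, stood at 11.3, 5.55 and 5.57 FPKM. It was 2.04-fold lower in BM (1.89 to 2.20) and 2.03-fold lower in BEM (1.89 to 2.18), but its log2 differences with the pseudocount, -0.97 and -0.96, missed the threshold. Itga7, the laminin receptor chain of muscle, stood at 4.57, 9.90 and 9.29 FPKM, 2.17-fold higher in BM (1.92 to 2.45) and 2.04-fold higher in BEM (1.81 to 2.30). On the pseudocount scale its log2 differences were 1.04 and 0.95, so that only the first passed the threshold, while the BEM value was 1.04 and 1.07 under upper quartile and median-of-ratios scaling. Between the mutants this chain was 1.07-fold lower in BEM than in BM, with an interval that includes no difference (0.967 to 1.17).

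The collagen-binding α chains differed in direction among themselves: Itga11 was far higher in BM and BEM than in WT, and Itga1 was lower. Itga11, the receptor chain for fibrillar collagen on mesenchymal cells, stood at 1.90 FPKM (WT), 25.6 (BM) and 24.7 (BEM) (chr9:62677826-62783982, plus strand). It was 13.5-fold higher in BM (11.7 to 15.6) and 13.0-fold higher in BEM (11.3 to 15.1). As a share of all summed integrin α chains it went from 0.954% in WT to 12.0% in BM and 11.9% in BEM. Of 10 fibroblast and mesenchyme markers 5, and of 6 smooth muscle markers 5, were at least 2-fold higher in BM and in BEM. Among all measured genes 10.5% were higher in BM and 10.7% in BEM. The smooth muscle markers Actg2, Myh11 and Cnn1 were below 1 FPKM in WT and passed the filter through BM and BEM. Other markers of both lists were lower in BM, namely Pdgfra (1.96-fold), Dcn (1.36-fold), Col3a1 (1.30-fold) and Des (1.35-fold). The part of such cells in the Itga11 difference was not tested. Itga1, which favours type IV collagen, stood at 9.23, 3.13 and 3.56 FPKM, 2.95-fold lower in BM (2.62 to 3.32) and 2.60-fold lower in BEM (2.34 to 2.89). Itga2, the collagen receptor chain of platelets and epithelia, was at 1.34, 0.885 and 0.827 FPKM and was not past the threshold. Itga10, a collagen receptor chain of cartilage, was not measured, with 38, 82 and 108 reads. Since 33.5% of its exon bases are shared with a neighbouring gene model on the same strand, reads there may be split between both or counted for neither.

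Of the 4 α chains that bind the RGD motif of fibronectin and vitronectin, Itga8 passed the threshold on the pseudocount scale, being lower in BM and BEM than in WT, and Itga5, Itgav and Itga2b did not. Itga5, the fibronectin receptor chain, had the highest FPKM of the integrin α chains in each culture, with 89.3 in WT, 109.8 in BM and 105 in BEM. Its share of the summed integrin α FPKM was 44.9%, 51.6% and 50.4%. Itga5 was 1.23-fold higher in BM (1.19 to 1.27) and 1.18-fold higher in BEM (1.14 to 1.21), below the threshold. Itgav, the α chain of the vitronectin and TGF-β activating receptors, was also below it, at 27.0, 38.6 and 38.7 FPKM. Itga8, which binds nephronectin with β1 and is found on mesenchyme and hair cells, stood at 16.8, 7.21 and 8.05 FPKM. It was 2.33-fold lower in BM (2.17 to 2.50) and 2.08-fold lower in BEM (1.95 to 2.22). Its BEM difference missed the threshold under both other scalings, with log2 values of -0.92 (upper quartile) and -0.89 (median of ratios). Itga2b, the fibrinogen receptor chain of platelets, stood at 1.85, 0.875 and 0.785 FPKM and missed the threshold on the pseudocount scale. It was 2.11-fold lower in BM (1.65 to 2.71) and 2.35-fold lower in BEM (1.85 to 3.004), and it would pass with a pseudocount of 0.05, with log2 differences of -1.035 and -1.182. The 5 platelet markers were mixed: Pf4 and Gp1bb were higher in BM and BEM than in WT, Ppbp and Gp9 were lower, and Gp6 was at 0, with a sum of 3.09, 5.07 and 5.55 FPKM. The part of platelet-like cells in Itga2b was not tested.

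The related chains Itga4 and Itga9 differed in opposite directions. Itga4, which binds VCAM1 and fibronectin and is used by leukocytes and by migrating mesenchyme and neural crest, stood at 0.282 FPKM (WT), 4.24 (BM) and 4.56 (BEM) (chr2:79255426-79333123, plus strand). It was 15.0-fold higher in BM (12.1 to 19.0) and 16.2-fold higher in BEM (13.0 to 20.4). The gene Cerkl overlaps 8.04% of its exon bases on the opposite strand, and reads of the pair cannot be told apart there unless strand was used in counting, which the sources used here do not give. Itga4 is counted here outside the leukocyte group, and its difference goes in the same direction as that of the macrophage marker sum, whose part in it was not tested. Itga9, a receptor chain for tenascin-C and osteopontin, stood at 6.38, 2.81 and 2.68 FPKM, 2.27-fold lower in BM (2.03 to 2.55) and 2.38-fold lower in BEM (2.14 to 2.65). With median-of-ratios scaling its log2 differences were -0.93 and -0.996, short of the threshold, and with upper quartile scaling the BM value, -0.97, was too.

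Among the β chains used outside leukocytes, Itgb1 and Itgb5 were moderately higher in BM and BEM than in WT and Itgb3 was lower. Itgb1, the common partner of the laminin, collagen and fibronectin receptor α chains, stood at 307 FPKM (WT), 463 (BM) and 470.2 (BEM). It was 1.51-fold higher in BM (1.48 to 1.53) and 1.53-fold higher in BEM (1.51 to 1.55), and its share of all summed β chains was 76.3%, 76.7% and 77.2%. Itgb5, a partner of αv, stood at 67.1, 115 and 113 FPKM, 1.72-fold and 1.69-fold higher. Neither gene was past the threshold. Itgb3, the β chain of the platelet and osteoclast receptors, stood at 20.7, 7.88 and 8.76 FPKM, 2.63-fold lower in BM (2.44 to 2.84) and 2.37-fold lower in BEM (2.21 to 2.54). Itgb4, the hemidesmosome partner of α6, was at 1.74, 0.688 and 0.617 FPKM, 2.53-fold lower in BM (1.997 to 3.23) and 2.82-fold lower in BEM (2.24 to 3.58). With the pseudocount its log2 differences were -0.915 and -1.004, so that only the BEM value passed, and that value was -0.94 and -0.91 under upper quartile and median-of-ratios scaling. Itgb8 and Itgb6, TGF-β activating partners of αv, were not measured. Itgb8 had 235, 83 and 95 reads, while Itgb6 had 2, 0 and 0. Of the 16 measured integrins outside leukocytes, 3 were higher and 5 lower in BM than in WT, and 2 were higher and 6 lower in BEM. The background shares were 10.5% higher and 15.3% lower for BM, and 10.7% and 15.3% for BEM. Of those past the threshold, Itga4 in WT, and Itga3 and Itgb4 in BM and BEM, were below 1 FPKM. These genes passed the filter through the cultures where they were high. The lower count in BM was 8 with a pseudocount of 0.05, 1 with a pseudocount of 5, 1 at 4-fold and 3 among members of at least 10 FPKM. The higher count in BM was 1 with a pseudocount of 5. No background share was computed for these settings. The sum of 7 endothelial markers was 6.45 FPKM (WT), 3.13 (BM) and 3.18 (BEM). Of these Pecam1, Cdh5, Tie1, Egfl7 and Emcn were lower in BM and BEM, while Kdr (1.28, 2.02 and 1.80 FPKM) and Tek (0.0591, 0.2005 and 0.214) were higher. The part of vessel cells in the Itgb3 and Itga1 differences was not tested.

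Among the leukocyte integrins, Itgb2, Itgal, Itgax and Itgae were higher in BM and BEM than in WT beyond counting error, Itgam had reads in BM and BEM alone, and Itgb7 was lower. Itgb2, the β chain shared by the leukocyte receptors with αL, αM, αX and αD, was the 1 measured gene of the group, with 3.72 FPKM (WT), 16.2 (BM) and 15.6 (BEM) (chr10:77530252-77565708, plus strand). It was 4.34-fold higher in BM (3.77 to 5.01) and 4.18-fold higher in BEM (3.64 to 4.82). Itgam, the αM chain of the complement receptor of macrophages and neutrophils, had 0 reads in WT, 109 in BM and 140 in BEM. Against a floor of 3 reads in WT it was at least 38.9-fold higher in BM and at least 42.2-fold higher in BEM. A second gene model under the same symbol shares 68.7% of the Itgam exon bases and had 0, 0 and 2 reads. The split of reads between the pair is uncertain, and reads in the shared bases may have been counted for neither. Itgal, the αL chain of lymphocytes and other leukocytes, had 5, 107 and 144 reads, 22.9-fold higher in BM (9.53 to 72.1) and 26.1-fold higher in BEM (10.9 to 81.5). Itgax, the αX chain of dendritic cells and macrophages, had 6, 42 and 61 reads, 7.50-fold higher in BM (3.17 to 21.6) and 9.20-fold higher in BEM (3.99 to 26.1). The intervals of Itgal and Itgax are wide, because both had fewer than 10 reads in WT. Itgad, encoding αD, had 0, 2 and 4 reads, which allows no fold. The mucosal lymphocyte chains Itgae and Itgb7 pointed in opposite directions. Itgae had 3, 15 and 15 reads, and Itgb7 had 56, 17 and 24, with Itgb7 3.07-fold lower in BM (1.76 to 5.64) and 2.58-fold lower in BEM (1.57 to 4.35).

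All 13 macrophage markers were measured and at least 2-fold higher in BM and in BEM than in WT, and C1qa and Spi1 were at 0 in WT. Among all measured genes 10.5% were higher in BM and 10.7% in BEM. Of the 13 markers only 2 reached 1 FPKM in WT, and the others passed the filter through BM and BEM, which favours a higher call. Of 6 T and NK cell markers, Cd3d, Cd3e, Cd8a and Nkg7 were at 0 in all 3 libraries, and the sum of the list was at most 0.144 FPKM. The part of macrophage RNA in the leukocyte integrin differences was not tested.

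**Figure D4:**
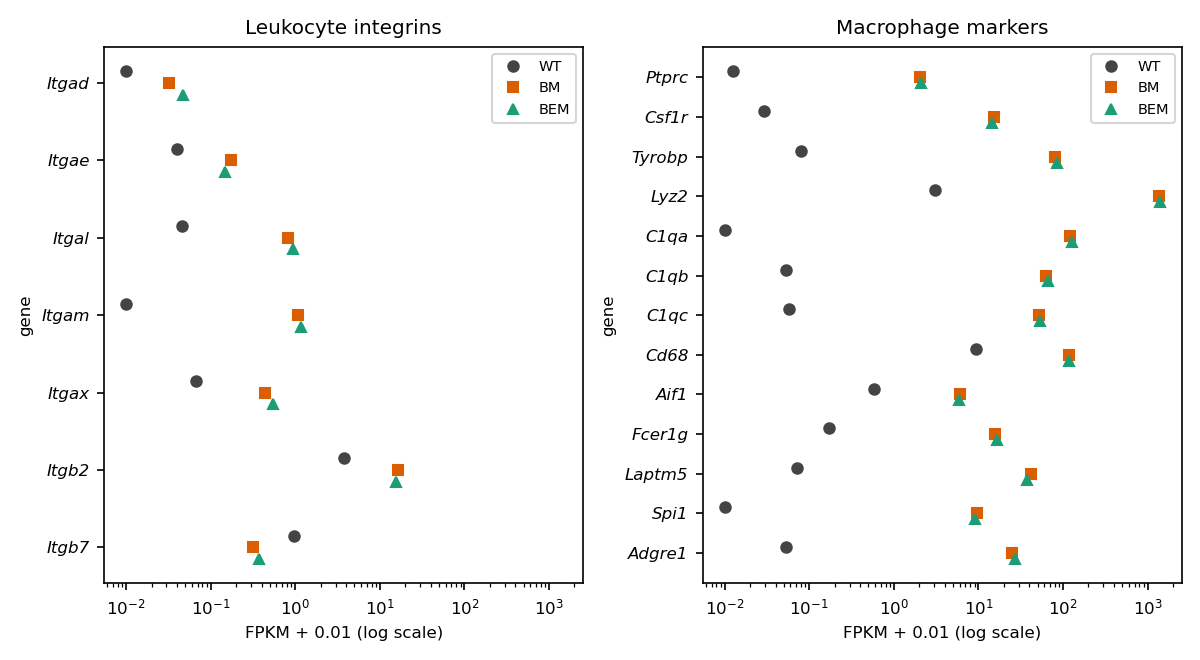
FPKM of 7 leukocyte integrin chains (left) and of 13 macrophage markers (right) on logarithmic axes, with a small constant added so that 0 can be drawn and 1 point per library. The WT point is the lowest for all 13 markers and for all of the integrin chains but Itgb7.

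Between BEM and BM, 0 of the 25 measured members were at least 2-fold apart, against 0.784% of all measured genes (0.458% higher in BEM and 0.326% lower). The members' median log2 difference was -0.03, and 24 of the 25 lay within 1.25-fold of each other in FPKM. The exception was Lamb3, with 9 reads in BM and 4 in BEM, a ratio of 2.66 with an interval of 0.744 to 11.8. Small differences beyond counting error stood in 6 members with many reads. Itga8 was 1.12-fold higher in BEM than in BM (1.03 to 1.21), Itgb3 was 1.11-fold higher (1.02 to 1.21) and Lama5 was 1.11-fold lower (1.01 to 1.22). Itga5 and Lama4 were 1.04-fold and 1.03-fold lower, and Itgb1 was 1.02-fold higher. With 1 library per line the counting interval leaves out the variation between cultures.

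Outside the family itself, the measured genes of the adhesion complex on the inner side of integrins passed 2-fold more often upwards than downwards in BM and BEM against WT. Of 25 measured genes of the adhesion complex list, 11 were higher and 3 lower in BM than in WT, with a median log2 difference of 0.82. Among all measured genes 10.5% were higher and 15.3% lower. In BEM the counts were 9 and 3 and the median was 0.81, against 10.7% higher and 15.3% lower among all measured genes. Of the genes higher in both, Lims2, Fermt3 and Parvg were below 1 FPKM in WT and passed the filter through BM and BEM. The largest differences in the list by the rule for named genes were in Lims2, Fermt3, Tln2, Actn1 and Pxn. Lims2, encoding the adapter PINCH2, stood at 0.357 FPKM (WT), 9.60 (BM) and 9.08 (BEM), 26.9-fold higher in BM (15.5 to 51.0). Fermt3, the kindlin of blood cells, stood at 0.717, 9.49 and 9.40 FPKM, 13.2-fold higher in BM (9.58 to 18.8). WT was the lowest of the 3 for both. Tln2, a talin of muscle and brain that activates integrins, stood at 3.05, 18.4 and 18.1 FPKM, 6.02-fold higher in BM (5.58 to 6.50). The actin cross-linker gene Actn1 stood at 97.6, 282 and 274 FPKM, 2.89-fold higher in BM (2.81 to 2.96). Pxn, encoding the scaffold paxillin, went the other way, at 27.2, 9.21 and 8.48 FPKM, 2.95-fold lower in BM (2.79 to 3.13).

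Of 16 measured partners of laminin in the basement membrane and at its receptors, 1 was higher and 5 were lower in BM than in WT, with a median log2 difference of -0.26, and BEM gave the same counts with a median of -0.30. The share over all measured genes was 10.5% higher and 15.3% lower for BM, and 10.7% and 15.3% for BEM. Bcam, a surface receptor for Lama5, stood at 7.77 FPKM (WT), 1.69 (BM) and 1.34 (BEM), 4.59-fold lower in BM (3.73 to 5.69). Nid1, the nidogen that bridges laminin and type IV collagen, stood at 478, 150.2 and 149 FPKM, 3.18-fold lower in BM (3.13 to 3.23). The basement membrane collagen genes Col4a6 and Col18a1, at 5.97 and 169 FPKM in WT, were 4.79-fold (4.11 to 5.60) and 2.67-fold (2.61 to 2.74) lower in BM. The other 10 measured genes were past the threshold in neither direction. Of these Col4a1 and Col4a2, at 173 and 174 FPKM in WT, were 1.09-fold (1.08 to 1.11) and 1.03-fold (1.01 to 1.04) higher in BM. Col4a5 and Hspg2, which encodes perlecan, were 1.27-fold (1.22 to 1.32) and 1.19-fold (1.18 to 1.21) lower. The 1 gene of this list that was at least 2-fold higher was Plec, at 21.8, 73.7 and 71.4 FPKM. It encodes plectin, which ties integrin α6β4 and other junctions to intermediate filaments.

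Of 17 measured genes for integrin ligands other than laminins, 4 were higher and 4 lower in BM than in WT, with a median log2 difference of 0.05, and BEM gave the same counts with a median of 0.06. All measured genes gave 10.5% higher and 15.3% lower for BM, and 10.7% and 15.3% for BEM. Of the 4 lower genes, Madcam1 and Vtn were below 1 FPKM in BM and BEM and passed the filter through WT. Tnc, encoding tenascin-C, a ligand of integrins α9β1 and αvβ3, stood at 35.0 FPKM (WT), 506 (BM) and 499 (BEM), 14.5-fold higher in BM (14.1 to 14.8). Of the chains of these receptors, Itga9 and Itgb3 were lower in BM and BEM than in WT, and Itgb1 and Itgav were higher without passing the threshold. Postn and Fbn1, encoding periostin and fibrillin-1 of the mesenchymal matrix, were 3.98-fold (3.90 to 4.06) and 3.14-fold (3.07 to 3.21) higher in BM. Icam1, a ligand of the β2 integrins, stood at 141, 47.7 and 45.4 FPKM, 2.96-fold lower in BM (2.82 to 3.09). Madcam1, a ligand of integrin α4β7, stood at 12.0, 0.245 and 0.207 FPKM, and 7 reads each in BM and BEM stood against 366 in WT. In each of the 3 lists, 0 measured genes were 2-fold apart between BEM and BM, against a share of only 0.784% over all measured genes.

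**Figure D5:**
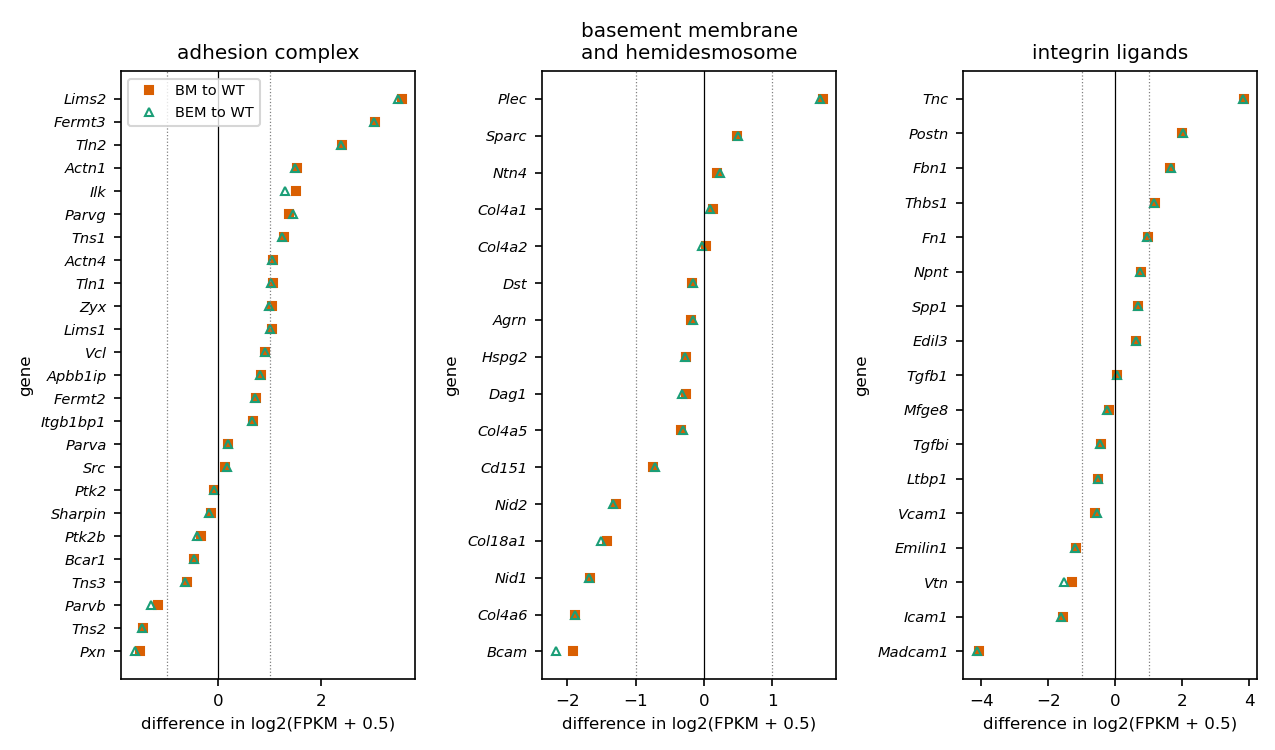
The difference in log2(FPKM + 0.5) from WT for each measured gene of the adhesion complex, basement membrane and ligand lists, with BM as orange squares and BEM as open green triangles. The solid line marks equal levels and the dotted lines mark 2-fold. The median difference between BM and WT is 0.82 in the first list, -0.26 in the second and 0.05 in the third.

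In the authors' deposited table for BM against WT, 9 members were marked significant, 5 of them up and 4 down, among 1554 rows or 3.26% of the table. By the authors' deposited table the members up in BM were Itga4, Itga11, Lama2, Itgal and Itgam, and those down were Itga3, Lama1, Lama5 and Lamb3. In the authors' deposited table for BEM against WT, 10 members were significant among 1643 rows (3.44%), the same genes and Itgax, which was up. The authors' deposited table for BEM against BM marked 0 members and 1 row in all. The sources used here do not say how significance was obtained without replicates.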

How the data were processed

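Poly(A)-enriched RNA of 3 cultures was sequenced, 1 library each, per the labels' protocols. The deposited values were FPKM, given in 3 tables of 1 pair of libraries each, per the file headers. Beside them stood the authors' log2 ratio of each pair, and the authors' p-value and FDR. The submitters' processing notes name TopHat2, HTSeq, edgeR and the build GRCm38, without versions. Of each deposited table, 4 lines were not analysed here.

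The design named a test on counts. The tables held FPKM, so a difference in log2(FPKM + 0.5) was used with no further scaling, for genes averaging at least 1 FPKM over the libraries. The pseudocount pulls ratios of low genes towards 1, and single folds are ratios of FPKM without it. FPKM are per length and per library total. Totals of 21555823, 20111794 and 23813123 reads for WT, BM and BEM made the values whole to within 0.0001 reads for 12824 of the 12875 measured genes. Of the members, 31 were whole at the exon length of the GENCODE annotation of GRCm38. For 7 (Itga5, Itgb5, Itga1, Itga2, Itga7, Lama1 and Itgb7) the shortest length that worked was taken, which gives the fewest reads and the widest interval. Ratios have exact (Clopper-Pearson) 95% intervals from these reads. Intervals and the floor of 3 reads cover counting error only, since amplified reads without molecular identifiers are not independent molecules. The read recovery and the intervals were tested on simulated data.

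The members, the lists of partner and marker genes and the motifs were chosen with earlier results of these data known. The values of 1 laminin chain are not reported here. From each partner list the text names up to 5 genes with the largest difference between BM and WT among those with at least 20 reads in 1 library and intervals that exclude 1 in both comparisons with WT. Alternatives were other pseudocounts, filters, scalings and thresholds, an interval rule and the authors' ratios. Python 3.11.15, numpy 2.4.6, pandas 2.3.3, scipy 1.17.1 and matplotlib 3.10.9 were used.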

Additional observations from a re-analysis of the deposited data

How the results depend on the processing

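The counts of members higher or lower than WT moved by over 1.5 times under settings that damp or drop low genes or ask for a larger difference. With a pseudocount of 5, 3 members were higher and 3 lower in BM, and 3 were lower in BEM. Among the 14 members with a mean of at least 10 FPKM, 2 were higher and 4 lower in BM, and 2 were higher and 4 lower in BEM. At 4-fold, 3 were higher and 4 lower in BM, and 4 were lower in BEM. With a pseudocount of 0.05, by the authors' ratio or by the counting interval, 5 were higher and 11 lower in each comparison. With no filter the counts were 7 higher and 8 lower in BM, and 6 and 9 in BEM, the leukocyte integrins giving 3 of those higher in each. Median-of-ratios scaling shifted all log2 differences from WT by 0.14 in BM and 0.13 in BEM. It gave 5 higher and 7 lower in BM and 5 higher and 6 lower in BEM, with 3 in place of 6 of the integrins outside leukocytes lower in BEM. Upper quartile scaling shifted both by 0.10 and gave 5 higher and 7 lower in each. Between BEM and BM the count was 0 in every setting run, and no called member changed direction in any of them. Shares over all measured genes were not computed under these other settings, so the counts here have no background beside them.

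No paired analysis was possible because each group has 1 library. The same limit bars a replicate check, and members under 20 reads, such as Lamb3 in BM and BEM and the leukocyte α chains in WT, have folds known only within wide intervals.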

Other observations

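In WT the β chain Itgb2 had 245 reads, while its α partners Itgal, Itgam, Itgax and Itgad had 5, 0, 6 and 0. In BM the same 4 partners had 107, 109, 42 and 2 reads against 992 of Itgb2. Reads are not scaled by gene length, and in FPKM the 4 stood at 0.810, 1.08, 0.435 and 0.0220 in BM against 16.2. The Itgam values are uncertain, since 68.7% of its exon bases are shared with a second gene model. In each library the summed FPKM of all integrin β chains was above that of all α chains, with 402.4 against 199.1 in WT, 603.6 against 212.8 in BM and 609 against 208.6 in BEM.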
